A study of Mus musculus with 48 samples.

Results

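Rotarod training is a motor task in which a mouse keeps its balance on a turning rod. Polyadenylated RNA of the whole cerebellum was compared between 4 samples of mice that had run this task and 4 samples of homecage mice that had rested, 8 of the 48 samples of the series. All 8 were labelled wild type (WT) and were 27 to 28 days old, so no Chd4 deletion enters this comparison. The rest and rotarod libraries were taken by the group name in the column headers of 1 deposited table, without selection on any measured value. That table lists 908 genes of about 26900 features tested, those whose deposited adjusted p was below 0.05, once each after repeated lines were dropped. The sources used here do not give the strain, the length of training, the time from training to dissection or any pooling of animals.

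Neuronal firing lets calcium into the cell and, through calcium and MAP kinase signalling, switches on immediate early genes within minutes without new protein synthesis. Many of these genes encode transcription factors (Fos, Nr4a, Egr and Npas4), which act on a second wave of genes for synaptic, secreted and adhesion proteins. Others encode phosphatases and inhibitors that shut the signalling pathways down again. The cerebellum, where granule neurons and Purkinje cells process movement signals, is needed for balance and for learning motor tasks.

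Levels are in log2 CPM, the log2 of a read count scaled to the size of its library, as the authors deposited them. They are not corrected for transcript length, so they are compared between libraries and not between genes. Library values follow the order rest 1, 2, 5 and 6, then rotarod 3, 4, 7 and 8, where the numbers are those of the column headers. Rose and fell are used of genes that passed the authors' test, as every listed gene did. Differences are rotarod minus rest in log2 CPM ± SE, from limma on the deposited values, with n = 4 and 4. Limma's own Benjamini-Hochberg adjusted p, over the 26900 features, is given as a second, stricter reading. Effective depth, recovered from the whole-read steps of low values, was 13.7 to 16.7 M reads per library. Nothing in the labels says that the 4 samples of a group came from separate animals, so the p-values measure the spread between these samples. Chd4 is not among the listed genes. Cbln1, which granule neurons secrete to build their synapses on Purkinje cells, stood at 10.05 to 10.79 log2 CPM in all 8 libraries. Of the 150 cell type markers only the 12 that are listed have values here, so other markers of the tissue could not be checked.

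The upstream DNA of a few risen genes is shown for the elements of known signalling pathways that it holds. The cyclic AMP response element (CRE), bound by CREB, was searched as TGACGTCA and, on its own or as part of the full element, as its core TGACGT. The heat shock element was searched as GAA, TTC and GAA with 2 free bases between neighbours, and the CArG box, bound by serum response factor, by its name. The glucocorticoid response element was searched as ACA and TGT, 3 bases apart, with G and C outside them after 1 free base each. All were searched on both strands. RefSeq windows of 300 bases on build GRCm38.p6, from 250 before to 50 after a transcript start, were found for 675 of the 908 genes. Because that is under 80% of the genes, no share over all risen or fallen genes is given. A match is a description of letters and not a bound site.

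The sequences before 4 immediate early genes are shown, with each CRE or CRE core in capitals, 5′ to 3′. These genes were picked for standing at or near the top of their lists and for holding such a match. They are Fos (chr12:85473640-85473889, plus strand), Nr4a3 (chr4:48045055-48045304, plus strand), Npas4 (chr19:4989972-4990221, minus strand) and Dusp1 (chr17:26508473-26508722, minus strand), 250 bases each, ending at the base before the start.
Fos: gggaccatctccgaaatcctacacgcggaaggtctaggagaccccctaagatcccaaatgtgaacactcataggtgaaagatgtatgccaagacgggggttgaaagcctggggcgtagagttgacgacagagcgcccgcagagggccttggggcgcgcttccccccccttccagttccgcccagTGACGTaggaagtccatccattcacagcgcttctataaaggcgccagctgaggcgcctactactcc
Nr4a3: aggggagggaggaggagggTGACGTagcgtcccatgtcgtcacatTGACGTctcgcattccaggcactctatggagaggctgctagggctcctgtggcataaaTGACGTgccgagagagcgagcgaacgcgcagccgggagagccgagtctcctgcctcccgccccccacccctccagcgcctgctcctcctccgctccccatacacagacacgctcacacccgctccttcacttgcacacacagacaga
Npas4: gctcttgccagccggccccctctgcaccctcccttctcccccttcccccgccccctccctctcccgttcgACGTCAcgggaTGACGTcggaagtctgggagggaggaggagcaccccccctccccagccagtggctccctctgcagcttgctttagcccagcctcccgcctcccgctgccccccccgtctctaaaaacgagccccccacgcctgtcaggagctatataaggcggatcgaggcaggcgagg
Dusp1: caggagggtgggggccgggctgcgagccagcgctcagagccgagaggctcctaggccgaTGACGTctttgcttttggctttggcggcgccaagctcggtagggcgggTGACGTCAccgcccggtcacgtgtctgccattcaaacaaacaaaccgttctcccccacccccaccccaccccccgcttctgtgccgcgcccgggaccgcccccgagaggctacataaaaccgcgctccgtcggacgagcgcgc
Fos holds 1 core, at base -66 from the start, and Nr4a3 holds 3. Npas4 holds 2 cores on opposite strands, and Dusp1 holds 1 full CRE at base -143 and a separate core. Of the 27025 genes with a window in RefSeq, 2.03% hold a full CRE and 8.37% a CRE core. Since the 4 genes were picked for a match, they cannot be set against these shares. For Fosb, Fosl2, Nr4a1 and Nr4a2, which also rose strongly, no match or no window was found.

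Dusp5 (chr19:53528895-53529144, plus strand) is shown for a pair of CArG boxes, in capitals, that touch end to end at bases -82 and -72. A CArG box is present in the windows of 1.81% of genes.
Dusp5: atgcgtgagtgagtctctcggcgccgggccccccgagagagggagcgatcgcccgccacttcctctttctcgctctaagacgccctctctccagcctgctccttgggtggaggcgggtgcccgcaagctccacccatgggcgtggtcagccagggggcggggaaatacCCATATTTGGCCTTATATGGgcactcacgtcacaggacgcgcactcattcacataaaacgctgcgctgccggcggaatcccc
For the glucocorticoid and heat shock lists described below, 2 genes are shown. Sgk1 (chr10:21993640-21993889, plus strand) shows a glucocorticoid response element in capitals, in the window of 1 of its alternative starts. Chordc1 (chr9:18292259-18292288, plus strand) shows 3 overlapping heat shock elements as 1 run of capitals across its start.
Sgk1: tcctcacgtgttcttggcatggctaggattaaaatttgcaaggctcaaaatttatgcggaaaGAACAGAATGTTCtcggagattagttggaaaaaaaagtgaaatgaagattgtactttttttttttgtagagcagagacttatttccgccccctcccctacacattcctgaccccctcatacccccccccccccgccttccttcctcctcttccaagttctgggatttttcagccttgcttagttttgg
Chordc1: accgGAACGTTCGGGAAAATTCCTGAAgca
The glucocorticoid element lies in the windows of 0.537% of all genes and in those of Sgk1 and Map3k6, 2 of the 12 risen glucocorticoid-list genes that have a window. The heat shock element lies in the windows of 0.662% of all genes and in those of 2 of the 8 risen heat shock genes, Chordc1 and Hsph1.

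After training 555 genes rose and 353 fell. Of the features tested, 2.06% rose and 1.31% fell, 3.38% in all. Most differences were small, since 204 risen and 117 fallen genes reached 1.5-fold in the authors' deposited table, and 112 and 47 reached 2-fold. The 4 values of a group lay wholly above or below those of the other for 771 of the 908 genes (84.9%), which is the background for the counts without overlap below. Limma, which had only the called genes to learn their usual spread from, passed 113 risen (0.42% of features) and 54 fallen genes (0.201%). Leaving out 1 library lowered these to between 44 and 67 risen and between 10 and 19 fallen genes, whichever library it was. Of the 50 named genes that passed, 23 did so in all 8 such fits, 20 lost the call in some and 7 lost it in all 8 (Adrb1, Bdnf, Cnr1, Id3, Neat1, Nfil3 and Tfrc). With columns 1 to 4 against 5 to 8 as a term, Cnr1, Homer1, Id3 and Spen lost it, at adjusted p of 0.0512 to 0.0544.

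The balance between risen and fallen genes moved with the read level. Ordered by mean log2 CPM, the 227 genes with the most reads held 180 risen and 47 fallen genes (79.3% risen), while the 227 with the fewest held 127 and 100. The next 227 from the bottom held 109 risen and 118 fallen. Median differences of risen genes ran the other way, from 1.05 in the lowest 227 to 0.32 in the highest, and low genes need larger differences to pass a test. A total of 55 genes had under 20 reads in every library.

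**Figure D1:**
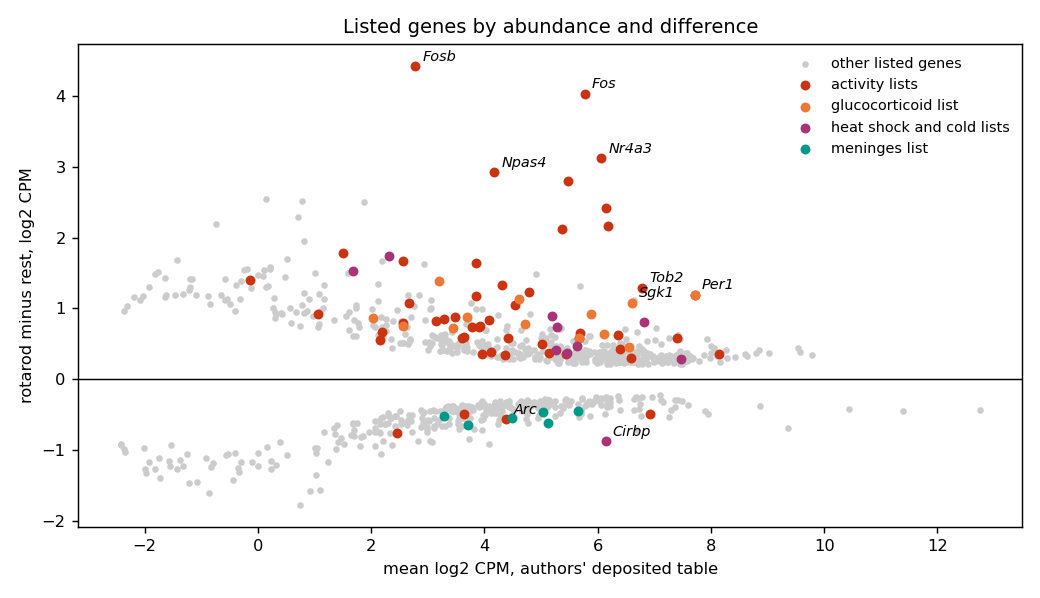
Each point is 1 of the 908 listed genes, by its mean log2 CPM in the authors' deposited table (horizontal) and rotarod minus rest in log2 CPM (vertical); colours mark the gene lists. Fosb, Fos, Nr4a3 and Npas4 stand at differences of 2.92 to 4.42, above all other listed genes, while the fallen meningeal genes lie between -0.65 and -0.44.

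Genes that neurons switch on with activity rose together. Over 6 lists (AP-1 factors, Nr4a receptors, Egr factors, other transcription factors, MAP kinase feedback inhibitors and effectors), 50 of 94 genes are listed (53.2%, against 3.38% of all features). Of these, 46 rose and 4 fell. Their groups did not overlap for 44 of the 50, and limma passed 25. The lists were drawn up with results of these data known, so these counts describe the lists and test nothing.

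AP-1 is a dimer of Fos and Jun family proteins that binds the promoters and enhancers of late response genes. Of 7 family members, Fos, Fosb, Fosl2 and Junb rose, and Fosl1, Jun and Jund are not listed (57.1% listed, against 3.38% of all features). Fos stood at 2.45, 2.47, 3.23 and 2.32 log2 CPM at rest and at 6.31, 6.55, 6.76 and 6.98 after training. The lowest trained library was over 3 units above the highest rested one, and the groups held 362 and 6546 reads. The difference was 4.03 ± 0.22, a 16.4-fold rise (limma adjusted p = 0.000639). Fosb, whose product forms long-lasting AP-1 dimers, read -0.46, -0.41, -1.52 and -0.51 at rest and 3.91, 3.21, 3.53 and 4.14 after training. It went from nearly silent (30 reads in all 4 rest libraries) to 858 reads, a difference of 4.42 ± 0.29 or 21.4-fold (limma adjusted p = 0.00117). Fosl2, a Fos relative that is slower in other systems, rose by 2.12 ± 0.23 from 3.30 to 4.36 at rest to 5.61 to 6.36. Junb, the one Jun gene listed, rose less, by 0.74 ± 0.16 from 3.13 to 3.53 to 3.85 to 4.52, and missed the limma threshold (adjusted p = 0.111).

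The Nr4a genes encode orphan nuclear receptors that act without a known hormone. All 3 rose (100% listed, against 3.38% of all features), and no rested library reached a trained one. Nr4a3 read 4.13, 3.67, 3.89 and 3.30 at rest and 6.48, 6.77, 6.98 and 7.24 after training, a difference of 3.12 ± 0.21 or 8.69-fold (limma adjusted p = 0.00117). Nr4a2 went from 3.67, 3.44, 3.92 and 3.23 to 5.87, 6.22, 6.49 and 6.87, by 2.80 ± 0.22 or 6.94-fold. For Nr4a1 the values were 4.77, 4.83, 4.19 and 3.93, then 6.63, 6.69, 6.86 and 7.18, with a difference of 2.41 ± 0.22 or 5.32-fold. In all 3 genes rotarod library 8 was the highest and library 3 the lowest of the trained libraries, and the same held for Fos, Fosl2 and Junb.

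Egr proteins are zinc finger factors and Nab proteins bind and restrain them. Egr1, Egr3, Egr4 and Nab1 rose without overlap of the groups, and Egr2 and Nab2 are not listed (66.7% listed, against 3.38% of all features). Egr4 stood at 4.38, 4.18, 3.38 and 3.83 at rest and at 5.17, 4.91, 5.17 and 5.45 after training, a difference of 1.24 ± 0.21. Egr1, often used beside Fos to mark active neurons, rose by only 0.63 ± 0.13, from 5.58 to 6.13 at rest to 6.48 to 6.71. Egr3 rose by 1.41 ± 0.29 at low levels, -1.86 to -0.51 at rest and 0.20 to 0.61 after training. None of the 4 passed limma, with adjusted p of 0.0515 to 0.121.

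Npas4 encodes a factor that calcium entry into neurons induces selectively. It read 2.24, 2.61, 1.46 and 1.23 at rest and 4.71, 4.73, 4.69 and 5.08 after training. The trained libraries were closely grouped and the rested ones were spread. The difference was 2.92 ± 0.29 or 7.56-fold (limma adjusted p = 0.00612). Of the other 25 transcription factors on its list, 12 rose, 3 fell and 10 are not listed. With Npas4, 61.5% of the list is listed, against 3.38% of all features. Klf2, a Krüppel-like factor, went from 2.59 to 2.94 at rest to 4.24 to 4.56, by 1.64 ± 0.11 (limma adjusted p = 0.00117). Cebpd, a leucine zipper factor also known from inflammation, rose by 1.67 ± 0.24 from 1.26 to 1.97 to 2.65 to 3.77. Sik1, a kinase that restrains CREB co-activators, rose by 1.18 ± 0.15. The immediate early genes Ier2 and Csrnp1 rose by 0.74 ± 0.08 and 0.87 ± 0.10, with rest values within 0.16 and 0.10 of each other. Klf4, Klf6, Klf15, Cebpb, Maff, Mafk and Per1 made up the rest of those that rose, and those of Cebpb and Maff overlapped between groups. The fallen members were Hes1 (-0.75 ± 0.15), Id2 (-0.49 ± 0.09) and Id3 (-0.49 ± 0.08), all repressors that act against neurogenic helix-loop-helix factors, and of these only Id3 passed limma (adjusted p = 0.0378).

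**Figure D2:**
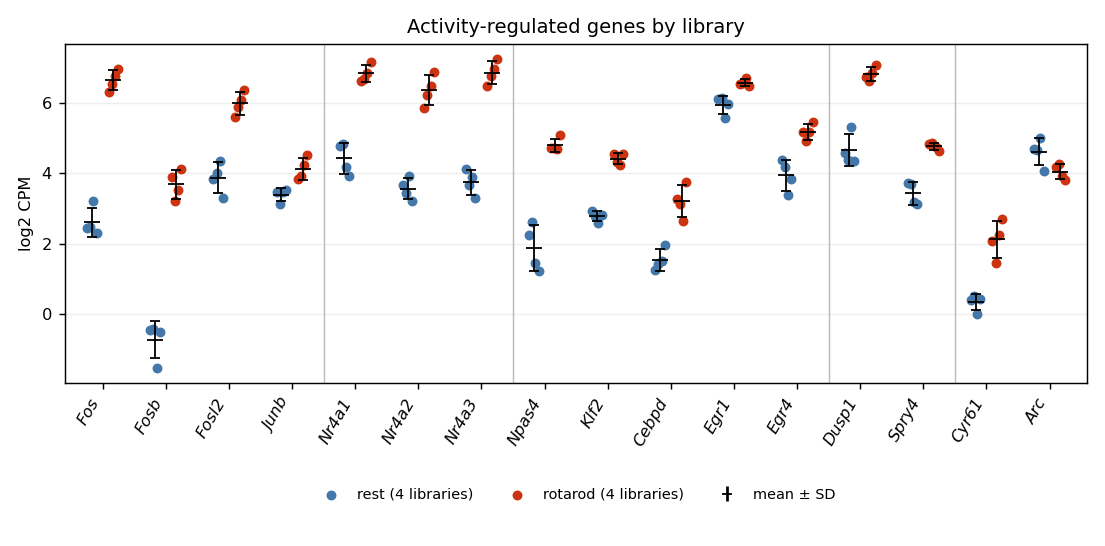
Log2 CPM of 16 activity-regulated genes in each rest (blue) and rotarod (red) library, with mean ± SD of 4 in black; grey lines part the AP-1 factors, Nr4a receptors, other transcription factors, MAP kinase feedback inhibitors and effectors. Fos moves from 2.32 to 3.23 up to 6.31 to 6.98, Junb and Egr1 by under 1 unit, and Arc is lower in the rotarod group with overlap.

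Signals that pass through MAP kinases are ended by dual specificity phosphatases (Dusp), Sprouty and Spred proteins and Errfi1. Of 17 such genes, 6 rose and none fell (35.3% listed, against 3.38% of all features). Dusp1, an inducible nuclear phosphatase of p38, JNK and ERK, read 4.59, 4.37, 5.33 and 4.35 at rest and 6.74, 6.62, 6.84 and 7.09 after training. Every trained library exceeded every rested one, by 2.16 ± 0.22 or 4.48-fold on average (limma adjusted p = 0.00624). Spry4 rose from 3.72, 3.71, 3.18 and 3.13 to 4.83, 4.86, 4.76 and 4.63 (1.33 ± 0.15, limma adjusted p = 0.011). Errfi1, an inhibitor of the EGF receptor, rose by 0.58 ± 0.07 (limma adjusted p = 0.0181). Dusp4 and Dusp5, nuclear phosphatases, rose by 1.08 ± 0.20 and 0.59 ± 0.10, just short of that threshold (adjusted p = 0.0638 and 0.0528). Dusp8 rose by 0.35 ± 0.11 with overlapping groups. Not listed are Dusp2, Dusp6, Dusp10, Dusp14, Dusp16, the other 3 Sprouty genes and the 3 Spred genes.

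Among 35 genes listed as activity-regulated effectors, 16 rose, Arc fell and 18 are not listed (48.6% listed, against 3.38% of all features). The list mixes synaptic, secreted and adhesion genes with regulators of other kinds, such as Tob2, Trib1, Arl4d, Plk3 and Nfil3, so its count does not describe synaptic or secreted genes alone. Tob2, an antiproliferative protein that recruits the mRNA deadenylation machinery, read 6.08, 5.82, 5.82 and 6.20 at rest and 7.21, 7.30, 7.39 and 7.18 after training (1.29 ± 0.10, limma adjusted p = 0.00298). Its relatives Tob1 and Btg2 rose by 0.43 ± 0.08 and 0.34 ± 0.14. Cyr61, a secreted matrix protein, rose by 1.78 ± 0.24 or 3.44-fold, from 0.00 to 0.53 at rest to 1.45 to 2.70. Trib1, a pseudokinase scaffold, rose by 1.05 ± 0.12 and Arl4d, a small GTPase, by 0.85 ± 0.10, and both passed limma. Bdnf, the neurotrophin, went from 3.58, 3.63, 3.18 and 3.50 to 4.28, 4.34, 4.10 and 4.10 (0.73 ± 0.11, limma adjusted p = 0.0364). The Bdnf call was lost in all 8 fits that leave out 1 library. Homer1, a postsynaptic scaffold gene with a short activity-induced form, went from 5.11 to 5.47 at rest to 5.82 to 6.14 (0.65 ± 0.10, limma adjusted p = 0.0342). Its gene-level values do not part the short form from the long ones. Nfil3 is described with the clock genes. Plat, Plk3, Rgs2, Gadd45g, Tiparp, Midn and Ctgf rose by 0.30 to 0.79 and none of the 7 passed limma.

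Arc, a synaptic protein that takes part in AMPA receptor endocytosis and a standard marker of active neurons, went the other way. It read 4.70, 4.67, 5.02 and 4.08 at rest and 4.19, 4.28, 3.92 and 3.81 after training. Rest library 6 lay below rotarod libraries 3 and 4, so the groups overlapped. The difference was -0.57 ± 0.20, with an adjusted p of 0.00426 in the authors' deposited table and 0.601 by limma. Also on this list and not listed as changed are Nptx2, Vgf, Scg2, Pcsk1 and Ptgs2.

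A microRNA locus rose with these genes. Mature miRNAs repress messages that match their seed, bases 2 to 8, and the genes Mir212 and Mir132 lie 203 bases apart on chromosome 11. The mature sequences (RefSeq, GRCm38.p6) are shown with the seed in capitals, because both share it. They are mmu-miR-132-3p (chr11:75173723-75173744, plus strand) and mmu-miR-212-3p (chr11:75173443-75173464, plus strand).
mmu-miR-132-3p: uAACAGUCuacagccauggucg
mmu-miR-212-3p: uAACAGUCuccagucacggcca
The libraries were primed with oligo-dT, so reads at these genes come from longer transcripts and do not measure the mature miRNAs. Mir132 had 0, 2, 0 and 0 reads at rest and 9, 5, 2 and 11 after training. Mir212 had 2, 1, 1 and 0, then 21, 5, 8 and 21. The noncoding RNA 1700016P03Rik, known as the host transcript of both, had 1, 4, 4 and 2 reads, then 24, 32, 18 and 36. All 3 were higher after training in the authors' deposited table, with adjusted p of 0.00103, 4.04e-05 and 4.61e-11, and limma passed the last alone (adjusted p = 0.011). These genes were chosen after their values were seen, and the sources used here do not say how reads were shared among overlapping features.

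Adrenal glucocorticoids reach the brain during exertion and stress and act through a nuclear receptor on a known set of genes. Of 20 such genes, 13 rose and none fell (65% listed, against 3.38% of all features), 11 of them without overlap. These genes, too, were chosen with results of these data known. Per1, a clock gene that also answers CREB, read 6.79, 6.90, 7.26 and 6.88 at rest and 8.08, 8.24, 8.05 and 8.24 after training (1.19 ± 0.11, limma adjusted p = 0.00432). Sgk1, a kinase that regulates ion channels, read 5.79, 5.75, 5.84 and 6.31, then 6.88 to 7.10 in the trained libraries (1.08 ± 0.13, limma adjusted p = 0.0135). Ddit4, an inhibitor of mTOR signalling, rose by 0.92 ± 0.13 (limma adjusted p = 0.0258). With Errfi1, above, these are the 4 that passed limma. Zbtb16, a zinc finger repressor, ranged from 1.96 to 3.24 at rest and from 3.31 to 5.17 after training, where rotarod library 8 stood alone at the top. Cdkn1a, Nfkbia, Arrdc2, Pdk4, Tsc22d3, Fkbp5, Hif3a and Map3k6 rose by 0.45 to 1.13. Mt1, Mt2, Sult1a1, Lcn2, Angptl4, Plin4 and Gpd1 are not listed.

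The rest libraries differed among themselves in this set. Fkbp5, a co-chaperone of the glucocorticoid receptor, read 2.62 and 2.66 in rest libraries 1 and 2 and 3.52 and 3.67 in 5 and 6, against 3.82 to 4.26 after training. Hif3a read 3.32 and 3.33 against 4.74 and 4.15 in the same pairs. Libraries 5 and 6 were both above libraries 1 and 2 for 8 of the 13 genes and both below for none, while over all 555 risen genes this held for 91 and 116. Within columns 1 to 4 the median difference of the 13 genes was 1.08, and within columns 5 to 8 it was 0.55. It was larger in columns 1 to 4 for 12 of the 13, and over all risen genes for 244 of 555. All 7 risen AP-1 and Nr4a genes had the larger difference in columns 5 to 8. This split of the columns was looked at after the values were seen, and no label says that it is a batch.

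Circadian genes rose in a few members only. Of 20 clock genes, Per1, a period gene of the core clock, the repressor Nfil3 and the cryptochrome Cry1 rose and 17 are not listed, Per2, Dbp and Nr1d1 among them (15% listed, against 3.38% of all features). Nfil3 rose from 3.77, 3.72, 3.39 and 3.48 to between 4.25 and 4.63 (0.84 ± 0.12, limma adjusted p = 0.0286). Cry1 rose by 0.41 ± 0.12 with overlapping groups. The sources used here give no hour of dissection.

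Heat shock proteins refold damaged proteins and are induced through the factor Hsf1. Of 24 cytosolic members, 8 rose without overlap and none fell (33.3% listed, against 3.38% of all features). Hspa1a and Hspa1b are 2 nearly identical inducible Hsp70 genes, whose reads the counting may have divided between them. Hspa1a went from 19, 27, 20 and 23 reads at rest to 75, 77, 67 and 76, or from a mean of 0.71 to 2.23 log2 CPM (1.53 ± 0.13, limma adjusted p = 0.00371). Hspa1b went from 0.99, 2.19, 0.45 and 0.88 to 3.02, 2.88, 2.87 and 2.71 (1.74 ± 0.32, limma adjusted p = 0.068), with rest library 2 above the other 3. Dnajb1, an Hsp70 co-chaperone, rose by 0.89 ± 0.13, and Hsph1, a nucleotide exchange factor of Hsp70, by 0.81 ± 0.13, from 6.05 to 6.64 at rest to 6.98 to 7.29. Chordc1, Bag3, Dnajb4 and Stip1 rose by 0.29 to 0.46. Rotarod libraries 3 and 4 were both above 7 and 8 in 6 of the 8 genes. Hspa8, Hsp90aa1, Hspb1 and Hsf1 are among the 16 not listed, and of 20 endoplasmic reticulum chaperones only Hspa5 is listed (0.47 ± 0.16, overlapping).

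Cirbp and Rbm3 are a related pair of RNA-binding proteins that cooling induces and warming represses, and they moved apart. Cirbp fell, from 6.46, 6.43, 6.51 and 6.60 at rest to 5.49, 5.57, 5.63 and 5.83 after training (-0.87 ± 0.09, limma adjusted p = 0.00612). Rbm3 rose, from 4.77, 4.90, 4.92 and 4.84 to 5.57, 5.62, 5.58 and 5.60 (0.74 ± 0.06, limma adjusted p = 0.0032). The groups overlapped in neither gene, and both passed limma with each of the 8 libraries left out in turn. No source used here gives a body temperature.

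**Figure D3:**
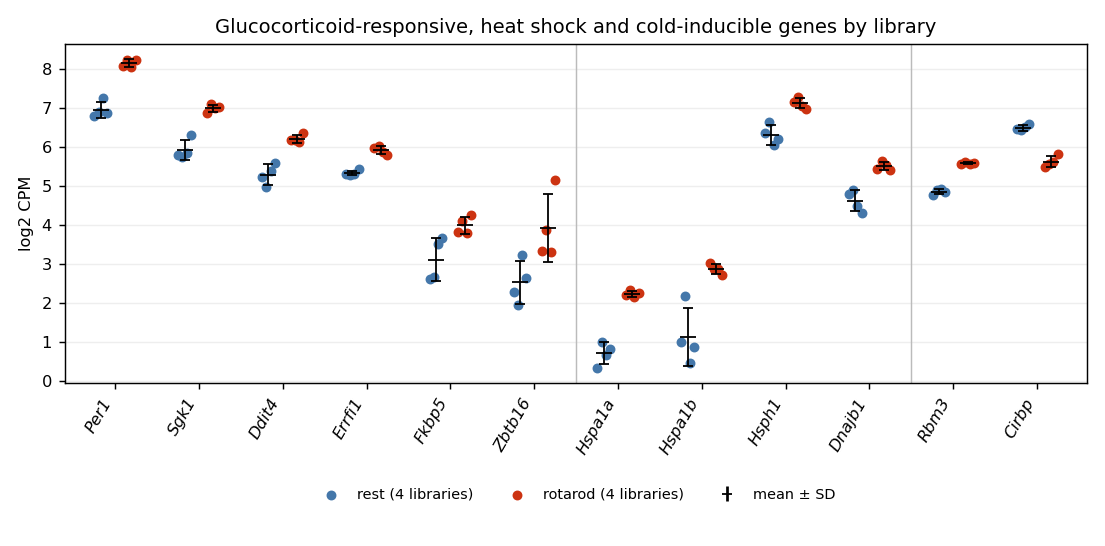
Log2 CPM per library, rest in blue and rotarod in red with mean ± SD of 4, of glucocorticoid-responsive genes (left), heat shock genes (middle) and the cold-inducible pair (right). Rest values of Fkbp5 fall into a pair at 2.62 to 2.66 and a pair at 3.52 to 3.67, and Rbm3 and Cirbp go in opposite directions.

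Few genes of the potassium channel and receptor lists are listed. Of the hypoxia and angiogenesis list, 3 of 15 genes are listed (20%, against 3.38% of all features), and all 3 rose. Slc2a1, the glucose transporter of the blood-brain barrier, rose from 6.07, 6.03, 6.13 and 6.12 to 6.89, 6.87, 6.62 and 6.82 (0.71 ± 0.08, limma adjusted p = 0.00893). The other listed genes of the 15 hypoxia and angiogenesis genes were Pfkfb3, an activator of glycolysis (0.40 ± 0.12), and the VEGF receptor Flt1 (0.38 ± 0.14, overlapping). Apold1, an early response gene of endothelium, rose from 0.53 to 1.36 at rest to 2.47 to 2.99 (1.67 ± 0.19, limma adjusted p = 0.011), and Edn1, the vasoconstrictor endothelin, by 0.79 ± 0.10 (adjusted p = 0.0191). The channel and receptor lists lay near the 3.38% of all features, with 6.06% and 5.13% listed. Of 33 potassium channels 2 rose, Kcna5 (1.55 ± 0.27) and Kcnk1 (0.30 ± 0.08), and of 39 glutamate and GABA-A receptor subunits Gabra2 rose (0.69 ± 0.22) and Gabrq fell. Osm, a cytokine of the interleukin-6 family, had 0 reads in every rest library and 2 in each trained one, at least 2.44-fold higher against a floor of 3 reads over the group. Apold1, Edn1 and Osm were chosen after their values were seen.

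Further genes rose strongly at high read levels. Bcl6, a transcriptional repressor, went from 5.91, 5.82, 6.14 and 5.98 to 7.20, 7.15, 7.10 and 6.86 (1.12 ± 0.10, limma adjusted p = 0.00371). Eomes, which marks unipolar brush cells of the granular layer, went from 5.11, 5.05, 4.74 and 4.76 to 6.60, 6.43, 5.80 and 6.08 (1.31 ± 0.18, limma adjusted p = 0.0237). In tissue RNA, more cells of a type and more RNA per cell cannot be told apart. Slc15a2, a peptide transporter, was high in 1 trained library: it read 2.69, 5.09, 4.04 and 4.38 at rest and 6.65, 5.11, 5.11 and 5.26 after training. It rose by 1.48 ± 0.53, with a limma adjusted p of 0.705 and a narrowest gap between groups of 5.09 to 5.11.

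Zbtb18, a zinc finger repressor needed for cerebellar neuron development, went from 9.63, 9.75, 9.50 and 9.81 to 9.12, 8.84, 8.99 and 8.96 (-0.70 ± 0.09, limma adjusted p = 0.0203). Tfrc, the transferrin receptor, fell by 0.52 ± 0.08 from 6.91 to 7.12 at rest to 6.34 to 6.58. Neat1, the noncoding RNA that builds paraspeckles, fell by 0.52 ± 0.08 from 6.04 to 6.18 to 5.39 to 5.70. Angel1 and Guf1 fell by 0.56 ± 0.09 and 0.54 ± 0.08, and with Cirbp, Zbtb18, Tfrc and Neat1 these are the 6 that passed limma among the 15 abundant genes with the lowest fold changes. Zc3h6, Flrt3, H3f3b, Zfp36l2, Cep83os and Col6a2 fell by 0.50 to 0.62 and did not. H3f3b has many processed copies in the genome, and Cep83os is an antisense gene whose reads may belong to its partner.

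Receptors of 2 modulators fell. Adrb1, the beta-1 adrenergic receptor, read 2.82, 2.51, 2.32 and 2.78 at rest and 1.75, 1.81, 1.18 and 1.45 after training (-1.06 ± 0.17, limma adjusted p = 0.0378). Cnr1, the cannabinoid receptor of parallel fibre terminals, read 9.07, 9.09, 9.06 and 8.96, then at most 8.72 in a trained library (-0.38 ± 0.06, limma adjusted p = 0.0403). Neither pair of groups overlapped. Both genes lost the limma call in all 8 fits that leave out 1 library, and Cnr1 also with columns 1 to 4 against 5 to 8 as a term. Dbh and Slc6a2, the synthetic enzyme and transporter of noradrenaline in neurons whose cell bodies lie outside the cerebellum, were uneven. Dbh had 61, 79, 46 and 2 reads at rest and 3, 41, 9 and 5 after training, and Slc6a2 had 69, 65, 43 and 0, then 4, 14, 8 and 5. Rest library 6 was as low as the trained libraries and rotarod library 4 was the highest of its group in both genes. The differences were -1.57 ± 1.02 and -1.58 ± 1.08 (limma adjusted p = 1), and without rest library 6 they were -2.55 and -2.81. These 4 genes were chosen after their values were seen.

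Sox9, a factor of astrocytes and Bergmann glia, fell from 6.05, 5.98, 5.77 and 5.84 to 5.47, 5.43, 5.55 and 5.47 (-0.43 ± 0.08, limma adjusted p = 0.0597). It is the one listed gene of 15 astroglial markers (6.67%, against 3.38% of all features). Of the 19 Sox genes in RefSeq, 5 are listed and all fell, Sox1, Sox2, Sox9, Sox12 and Sox18, by 0.30 to 0.64, and none passed limma. Mcm2 and Mcm5, parts of the replicative helicase, fell by 0.44 ± 0.10 and 0.46 ± 0.08 and the cell cycle gene Ccnd1 by 0.34 ± 0.11. Mcm2 and Mcm5 are 2 of 9 Mcm genes in RefSeq, and neither they nor Ccnd1 passed limma. The 5 listed of 17 Klf genes (Klf2, Klf4, Klf6, Klf13 and Klf15) all rose, by 0.42 to 1.64. Other families went both ways. Of 40 Zbtb genes 6 rose and 3 fell, and of 397 Zfp genes 16 rose and 11 fell. The background for all these families is the 3.38% of all features that are listed. The Sox, Klf, Mcm, Zbtb and Zfp families and Ccnd1 were singled out after the values were seen, so these counts test nothing. Of 16 genes for H2A.Z, a histone variant, and the enzymes that exchange it, 2 are listed (12.5%, against 3.38% of all features). These 2, Dmap1 and Kat5, fell by 0.45 ± 0.11 and 0.29 ± 0.06. No subunit of the NuRD complex out of 15 is listed (0%, against 3.38% of all features), and at that share a set this small can hold none.

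Fibroblast genes of the meninges, the membranes around the brain, fell in 6 of 19 cases and rose in none (31.6% listed, against 3.38% of all features). Slc6a13, a GABA and taurine transporter, read 3.76, 4.07, 3.86 and 4.27 at rest and 3.56, 3.22, 3.21 and 3.38 after training (-0.65 ± 0.13). Aebp1, a matrix protein, fell by 0.62 ± 0.14, Col1a1, a collagen chain, by 0.44 ± 0.13 and Fmod, which organises collagen fibres, by 0.46 ± 0.14. Slc22a6 and Slc13a4, organic anion and sulphate transporters, fell by 0.52 ± 0.18 and 0.55 ± 0.19 with overlapping groups. None of the 6 passed limma. The summed level of these 6 was 171 to 222 CPM at rest and 117 to 152 CPM after training, without overlap. All 6 were listed as fallen, so a lower sum follows from how they were chosen, and the other markers have no values. How much meninges stayed on each cerebellum was not tested. Foxc2, Crabp2 and Gjb2, also known from meningeal cells and chosen after their values were seen, fell by 0.71 to 0.94. Hba-a1, a haemoglobin chain of red blood cells, rose with overlapping groups, from 7.35, 6.14, 6.07 and 5.77 at rest to 7.21, 7.41, 6.58 and 6.80 after training (0.67 ± 0.34, limma adjusted p = 1). Rest library 1 stood as high as the trained ones. No listed gene came from the Purkinje, interneuron, oligodendrocyte, microglia or choroid plexus lists. In all, 12 of 150 cell type markers are listed (8%, against 3.38% of all features), 4 risen and 8 fallen.

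The granule neuron gene Cbln1 fell from 10.49, 10.79, 10.70 and 10.49 to 10.35, 10.05, 10.17 and 10.22 (-0.42 ± 0.10, limma adjusted p = 0.13). It and Eomes are the 2 listed of 17 genes of the granular layer (11.8%, against 3.38% of all features). Transcripts of the mitochondrial genome fell in the 4 cases listed, and how many of them were tested is not known here. The complex I genes mt-Nd1 and mt-Nd6 fell by 0.43 ± 0.16 and 0.45 ± 0.18 with overlapping groups, and the transfer RNAs mt-Tc and mt-Tl1 by 0.63 ± 0.12 and 0.67 ± 0.12 without overlap. None of the 4 passed limma, and all but mt-Nd1 were chosen after their values were seen.

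**Figure D4:**
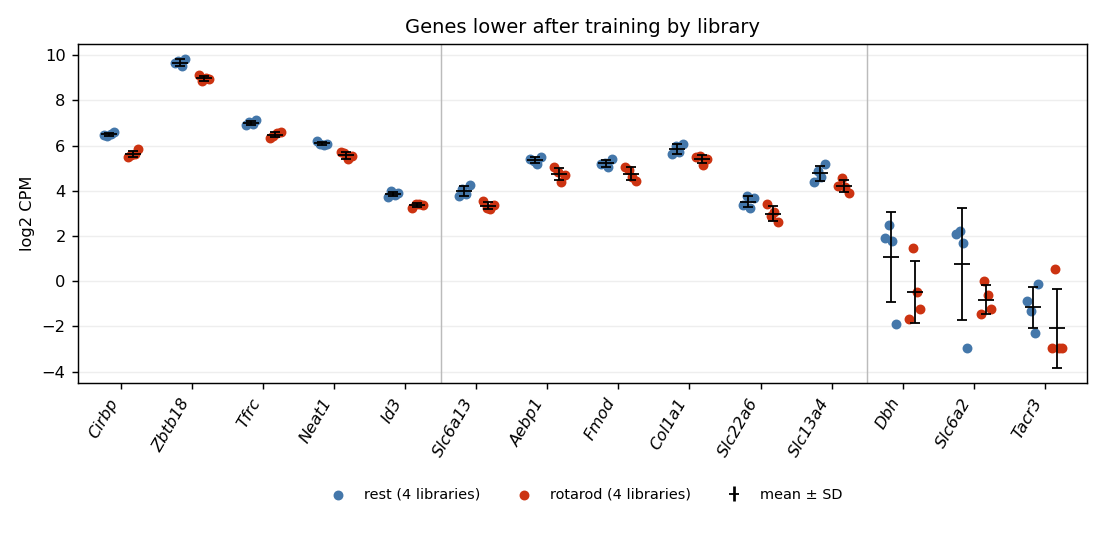
Log2 CPM per library, rest in blue and rotarod in red with mean ± SD of 4, of genes that fell: regulators and abundant genes (left), meningeal genes (middle) and 3 uneven genes (right). Cirbp and Zbtb18 part without overlap, while Dbh and Slc6a2 are low in rest library 6 and Tacr3 is high in rotarod library 4.

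A further 4 WT cerebellum samples of the same age, sequenced as controls of the Chd4 knockout, give an outside level for 320 of the genes. Their table lists only 5505 genes, those of the Chd4 comparison, and was normalized separately, so levels are set side by side without a test. The median difference between WT and rest over these genes was 0.12, with WT higher. It pools risen and fallen genes, so opposite shifts can cancel in it. Fos averaged 3.67 ± 0.72 (SD, n = 4) there, between 2.62 ± 0.41 at rest and 6.65 ± 0.29 after training. For Nr4a1, Dusp1, Klf2 and Egr4 the WT mean lay within 0.39 of the rest mean, and for Egr1 0.38 below it. Other activity genes were higher in WT than at rest. Nr4a3 was at 5.53 ± 0.48 in WT against 3.75 at rest and 6.87 after training, and Fosl2 at 4.79 ± 0.34 against 3.87 and 5.99. Dusp4 (3.18 in WT, 3.02 after training), Homer1 (6.20 and 5.97) and Errfi1 (6.22 and 5.92) lay above even the trained mean. A second set of genes stood in WT where training had brought them. Bcl6 was at 7.21 ± 0.20 in WT against 5.96 at rest and 7.08 after training, and Eomes was at 6.22 ± 0.07 against 4.91 and 6.23. Zbtb16 was higher in WT, 5.91 ± 0.49, than in either group (2.53 and 3.92), as were Hsph1 (7.72 against 6.32 and 7.13) and Klf15 (5.13 against 4.08 and 4.65). Arc was at 4.29 ± 0.21 in WT, between 4.05 after training and 4.62 at rest. Of 205 genes that rose with training and are in both tables, 35 had a WT mean at or below the rest mean. Because genes were listed for their rest and rotarod values, a WT mean on the trained side of rest can follow from that choice.

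**Figure D5:**
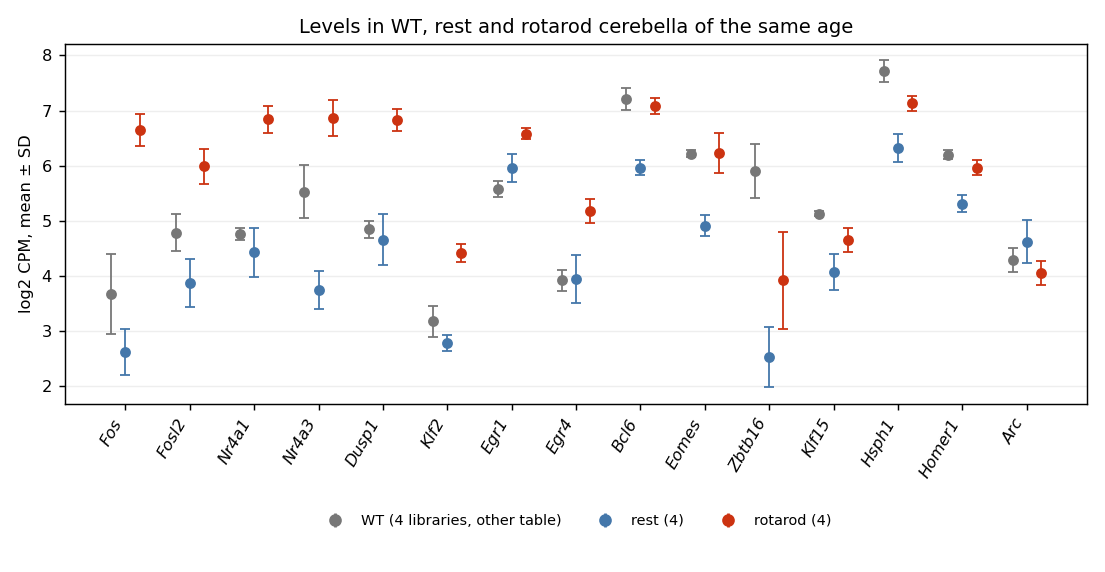
Mean log2 CPM ± SD of 4 libraries each for WT (grey, another table, normalized separately), rest (blue) and rotarod (red). Nr4a1, Dusp1 and Klf2 of WT lie near rest, Fos of WT lies between the groups, Bcl6 and Eomes of WT lie at the rotarod level, and Zbtb16 of WT lies above both.

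The trained libraries were not equal in their levels of the risen activity genes. Over the 46 risen activity genes rotarod library 8 was the highest of its group in 28, against 5, 9 and 4 for libraries 3, 4 and 7, and its median deviation from the group mean was 0.15. Among rest libraries the highest value of these 46 genes was shared out, with 10, 11, 11 and 14 genes. Library 8 also led over the 520 risen genes for which this was counted. It was highest in 173 of them, against at most 126 for another trained library, with a median deviation of 0.018. The heat shock list went the other way, with libraries 7 and 8 both below 3 and 4 in 6 of 8 genes. Genes of a list can vary together, so the 28 are not independent observations. Over the 454 listed genes at or above the median read level the median SD was 0.122 at rest and 0.0884 after training. The SD was larger at rest in 317 of them. Of these 454 genes 319 rose and 135 fell, so most had a higher read level after training, and the part of read level in the SD was not tested. Effective depth had medians of 14.2 M reads at rest and 16.1 M after training, and its part in this spread was not tested.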

How the data were processed

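Polyadenylated RNA of rest and rotarod cerebella was sequenced in 4 libraries each. Per the file headers, the authors deposited log2 CPM for each library (the floor fits a prior count of 2), their log2 fold change, a likelihood ratio score and the p-value of each gene, raw and adjusted. Bowtie, edgeR and build mm9 are named in the submitters' processing notes, while versions, counting tool, strand and filters are not given in those notes or headers. Only genes with an adjusted p under 0.05 are listed (913 lines, 908 genes after 5 repeats were dropped), and the ratio of adjusted p to p, times the rank, put the features tested at about 26900. After the floor of -2.95 (0 reads) was removed, 100% of values up to 1000 reads lay within 0.1 of a whole read. Floors cover counting error only.

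Differences came from limma 3.58.1 (R 4.3.3) on the log2 values, adjusted over 26900 features. Its variance prior came from called genes alone. A run on simulated data adjusted over 908 genes only, so it did not test the adjustment used here. Column numbers match no sample title, so libraries are known by group. The members and gene lists were chosen with earlier results of these data known. Named genes are all listed members of the lists, plus the 15 highest and 15 lowest fold changes at or above the median read level, without predicted genes. Others are said to be chosen later. Promoters and miRNAs are from RefSeq, GRCm38.p6, and 902 of 908 identifiers matched the reference.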

Additional observations from a re-analysis of the deposited data

Results flagged for a closer look

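In 286 groups of 4 libraries (143 named genes, rest and rotarod apart), 20 had 1 library whose gap to its nearest neighbour took most of the range of the group. Dixon's test flags about 1 in 20 groups by chance, and the genes are not independent. Values are in log2 CPM.

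In rest library 5 Fos was high at 3.23 (others 2.32 to 2.47) and Csrnp1 at 3.04, while Fosb was low at -1.52, Tob1 at 5.97 and Cep83os at 4.28. In rest library 6 the high values were Sgk1 at 6.31 (others 5.75 to 5.84), Nfkbia at 4.70 and Ctgf at 2.84. The low ones there were Midn at 6.24, Gabrq at -0.37, Dbh at -1.87 (others 1.80 to 2.49) and Slc6a2 at -2.95, which is 0 reads. Rest library 2 was low for Zc3h6 at 4.67 and held the only reads at rest of Mir132, at -1.90.

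Among trained libraries, library 3 was high for Slc15a2 at 6.65 (others 5.11 to 5.26), Col6a2 at 4.73 and Sox1 at 4.66. Library 4 was low for H3f3b at 6.75 and high for Tacr3, the neurokinin B receptor, chosen after its values were seen, at 0.55, with 0 reads in the other 3. Without library 4 the difference of Tacr3 went from -0.92 to -1.80. Library 8 was high for Npas4 at 5.08 (others 4.69 to 4.73).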

How the results depend on the processing

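The authors' calls numbered 555 risen and 353 fallen genes. An adjusted p under 0.01 kept 357 and 161, at least 1.5-fold 204 and 117, at least 2-fold 112 and 47, and the genes at or above the median read level 319 and 135. Every line with repeats gave 559 and 354. Limma passed 113 and 54. With a pseudocount of 1 CPM it passed 156 and 83, with 5 CPM 176 and 94, with a trend on abundance 195 and 91, and among genes at or above the median read level 58 and 22. With columns 1 to 4 against 5 to 8 as a term, which the labels do not name as a pairing, it passed 107 and 53. Columns 1 to 4 alone and columns 5 to 8 alone gave 0 and 0 by limma, where 2 against 2 libraries had unadjusted p under 0.05 for 356 and 265 genes and for 422 and 254. Without each library in turn limma passed 44 to 67 and 10 to 19 genes. No paired analysis was possible because the column numbers of rest and rotarod libraries share none and match no number in the sample titles.

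For the 143 named genes, 2080 differences were recomputed. Of these 1725 kept their side of the limma threshold, 276 lost it, 79 gained it and none changed sign. Over all 908 genes the direction held in every setting for 907. In all 8 fits that leave out 1 library 41 genes passed, 35 of them risen, among them Fos, Fosb, Fosl2, Nr4a1, Nr4a2, Nr4a3, Npas4, Dusp1, Per1, Rbm3 and Cirbp. Leaving out 1 library moved Dbh and Slc6a2 (rest library 6) and Gabrq and Tacr3 (rotarod library 4) by over 1.5 times, Gabrq from -1.06 to -1.89. No rest library had over 2 reads of Mir132, and no library over 2 of Osm.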

Other observations

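Chromatin and signalling genes that the lists did not cover were looked at after their values were seen. Spen, a large nuclear repressor, rose from 7.78, 7.41, 7.59 and 7.61 to 8.15, 8.26, 8.11 and 8.16 (0.57 ± 0.09, limma adjusted p = 0.0353). The histone methyltransferases Kmt2a and Kmt2d rose by 0.41 ± 0.10 and 0.38 ± 0.08 without overlap of the groups, and limma passed neither (adjusted p = 0.154 and 0.0877). They are 2 of the 5 Kmt2 genes in RefSeq, where 3.38% of all features are listed. The forkhead factors Foxo1 and Foxo3 rose by 0.33 ± 0.09 and 0.30 ± 0.09 and Irs2, an adaptor of the insulin receptor, by 0.51 ± 0.13, with no call by limma. Irf9, part of the interferon response complex, read 3.66, 3.82, 3.80 and 3.51 at rest and 4.65, 4.58, 4.62 and 4.57 after training (0.91 ± 0.08, limma adjusted p = 0.00371). Tbx6, a T-box factor, rose by 1.19 ± 0.14 and Usp2, a ubiquitin protease, by 0.55 ± 0.07, and both passed limma. The groups overlapped in none of Irf9, Tbx6 and Usp2.

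Mir138-2 was the one miRNA gene that fell, with 8, 4, 4 and 10 reads at rest and 3, 2, 1 and 1 after training, and 4 miRNA genes rose. Calca, the gene of the peptide CGRP, fell at low levels, from -1.54 to -0.35 at rest to -2.39 to -1.69 after training (limma adjusted p = 0.121). Both were chosen after their values were seen. By annotation, 501 of the 812 listed protein-coding genes rose (61.7%), near the 61.1% of all 908 listed genes. Of the 30 listed intergenic noncoding RNAs 12 rose (40%).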
